A study of Mus musculus with 16 samples.

Results

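The miR-200 and miR-183 miRNAs, which are best known from epithelia and sense organs and are abundant in olfactory tissue, were examined in small RNA libraries of mouse prefrontal cortex. The members were fixed by name as 8 mature miRNAs, namely the 5 miR-200 family miRNAs mmu-miR-200b-3p, mmu-miR-200a-3p, mmu-miR-429-3p, mmu-miR-200c-3p and mmu-miR-141-3p, and the 3 miR-183 cluster miRNAs mmu-miR-183-5p, mmu-miR-96-5p and mmu-miR-182-5p, and all 8 were found among the 18488 features of the table. The rule itself used names and no measured value, though the choice was made with earlier results of these data known. The prefix mmu- is left out below.

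PS19 mice carry a human tau transgene with the P301S mutation under the mouse prion promoter and develop tauopathy, and the study asked which RNAs in cortex and in blood vesicles track that process. The brain small RNA libraries came from 8 PS19 mice, heterozygous for the transgene Tg(Prnp-MAPT*P301S)PS19Vle on a mixed B6 and C3 background, and from 8 wild-type (WT) littermates bred in-house, with no treatment named, in the tenth month of life, with equal numbers of males and females in each group. The sex of each library was not given in the labels, and the prion promoter drives the transgene widely rather than in a single cell type. The labels name the tissue prefrontal cortex, and the methods of the study describe cortex freed of cerebellum, olfactory bulb and subcortical tissue. Libraries are named by genotype and the replicate number of the sample title. Library codes in the labels began with G for all 8 PS19 libraries and for WT 2 and WT 4, with F for 4 WT libraries and with A for 2, and the meaning of this letter is not given.

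A miRNA is cut from the stem of a hairpin precursor and pairs with target mRNAs mainly through its seed, the bases just inside its 5′ end. The miR-200 family holds cells in an epithelial state by repressing the transcription factors Zeb1 and Zeb2, and it also acts in the formation of olfactory neurons. The miR-183 cluster is expressed together in hair cells, photoreceptors, olfactory epithelium and other sensory cells, and seed mutations of miR-96 cause progressive hearing loss.

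The 8 mature sequences are shown first because they fall into a few seed groups, and because reads can be told apart only where the sequences differ. They are taken from RefSeq (GRCm38.p6), written 5′ to 3′, with the seed, bases 2 to 8, in capitals.
miR-200b-3p: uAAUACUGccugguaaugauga
miR-429-3p: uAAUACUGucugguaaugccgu
miR-200c-3p: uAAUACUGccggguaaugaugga
miR-200a-3p: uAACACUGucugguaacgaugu
miR-141-3p: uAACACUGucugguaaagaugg
miR-183-5p: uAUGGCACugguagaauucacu
miR-96-5p: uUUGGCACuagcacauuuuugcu
miR-182-5p: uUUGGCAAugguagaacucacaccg

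The sequences of miR-200b-3p, miR-429-3p and miR-200c-3p share the seed AAUACUG, while miR-200a-3p and miR-141-3p share AACACUG, and no other mature miRNA among the 1679 in the reference carries either. The miR-183 cluster members each have a seed of their own, and that of miR-96-5p is found in 1 other mature miRNA, miR-1271-5p. From the 5′ end, miR-200b-3p and miR-200c-3p differ at 2 of 22 bases, as do miR-200a-3p and miR-141-3p, whereas miR-183-5p and miR-182-5p differ at 4 of 22. How many mismatches the counting allowed is not given in the sources used here, so the levels of the scarce miR-200c-3p and miR-141-3p are uncertain to the extent that reads of an abundant relative were assigned to them.

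The hairpins lie at 3 places, all on the minus strand (GRCm38, GENCODE M21). Mir200b (chr4:156055681-156055750), Mir200a (chr4:156054896-156054985) and Mir429 (chr4:156053905-156053987) lie within 1846 bases in introns of the coding gene Ttll10, and Mir429 is also exonic in the non-coding transcript Gm13648. Mir200c (chr6:124718322-124718390) and Mir141 (chr6:124717914-124717985) lie within 477 bases in an intron of the antisense gene Gm15884, where part of Mir141 overlaps an exon of Gm29008. Mir183 (chr6:30169668-30169737), Mir96 (chr6:30169446-30169551) and Mir182 (chr6:30165918-30165992) lie within 3820 bases and overlap no annotated gene. The miR-200 members therefore come from 2 separate loci and the miR-183 members from another.

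Levels are given as normalized signal, the read count divided by a size factor for each library, in which a read counts once whatever its length. Libraries held 13.2 M to 23.1 M recovered reads (median 17.6 M), and miRNAs made up 15.0% to 32.6% of the signal. All 6 miRNAs on a list known from cortical neurons were present in every library, with miR-137-3p between 10.0 and 103.2 and miR-128-3p between 184903 and 764931. Their presence does not set cortex apart from other brain tissue, so it does not check the tissue label. In tissue of mixed cells, fewer cells of a type and less RNA per cell cannot be told apart.

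The members spanned more than 3 orders of magnitude. By mean signal over the 16 libraries, miR-182-5p (1220) ranked 111 and miR-183-5p (955.5) ranked 128 among the 1254 mature miRNA features. They were followed by miR-200b-3p (380.1, rank 164) and miR-200a-3p (153.0, rank 235). A second group was scarce, with 22.3 for miR-200c-3p, 15.0 for miR-429-3p and 5.93 for miR-96-5p. Of miR-141-3p, 14 reads were counted in all 16 libraries (mean signal 0.838), and it was the 1 member of 8 below the mean of 5 required for the test across features. All members overlapped between the genotypes.

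Among the miR-200 members of the chromosome 4 locus, miR-200b-3p was the most abundant and spanned 22.7 to 449.8 in PS19 (median 198.7) and 37.6 to 2099 in WT (median 123.7). The highest values were those of WT 5 (2099) and WT 8 (1354), then WT 1 (492.0), and the other 5 WT libraries lay below the PS19 median. The mean was 2.55-fold higher in WT (546.0 ± 768.9, SD, n = 8) than in PS19 (214.2 ± 153.1, SD, n = 8), while the median was lower in WT.

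The second miRNA of that locus, miR-200a-3p, behaved alike, with 9.74 to 105.3 in PS19 (median 64.4) and 11.1 to 989.2 in WT (median 51.7). The same 3 WT libraries, with 989.2 in WT 5, 536.5 in WT 8 and 263.9 in WT 1, exceeded every PS19 library and held 91.8% of the summed WT signal. For the scarce miR-429-3p, values ran from 0 to 10.2 in PS19 (median 8.54) and from 0 to 87.3 in WT (median 4.65), and WT 5, WT 8 and WT 1 again lay above all PS19 libraries. Its ratio of means, WT over PS19, was 3.69 and its ratio of medians 0.545, so that mean and median pointed in opposite directions for all 3 miRNAs of this locus.

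The other miR-200 locus differed from the first in which libraries were high. miR-200c-3p spanned 2.17 to 13.9 in PS19 (median 5.10) and 1.41 to 165.8 in WT (median 12.03), with WT 5 (165.8), WT 1 (87.1) and WT 2 (19.97) above all PS19 libraries. WT 8, the second highest library for all 3 miRNAs of chromosome 4, had 13.1 for miR-200c-3p, below the highest PS19 library. Both the mean (6.004-fold) and the median (2.36-fold) were higher in WT, and 7 of 8 PS19 libraries lay below the WT median. Its partner miR-141-3p was above 0 in 3 PS19 and 3 WT libraries, at no more than 5 reads in any of them, so that no difference could be detected at this depth (two-sided exact permutation test, p = 0.530).

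Within the miR-183 cluster, miR-183-5p ranged from 185.0 to 820.9 in PS19 (median 379.8) and from 78.5 to 4965 in WT (median 879.1). All 8 PS19 libraries lay below the WT median, and WT 5 (4965), WT 1 (3477), WT 3 (1228) and WT 8 (1048) exceeded every PS19 library, yet the lowest of all 16 values was also a WT library, WT 7. The WT mean (1493 ± 1778, SD, n = 8) was 3.57 times the PS19 mean (417.8 ± 243.9, SD, n = 8).

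Its neighbour miR-182-5p, the most abundant member, ranged from 242.9 to 1320 in PS19 (median 478.9) and from 87.7 to 5786 in WT (median 1073), with WT 5 (5786), WT 1 (4572) and WT 3 (1737) above all PS19 libraries and WT 7 again lowest. miR-96-5p, the member tied to hearing, was scarce, at 0 to 9.83 in PS19 (median 1.84) and 0 to 36.5 in WT (median 5.01), from at most 41 reads in a library. The ratios of means, WT over PS19, were 3.19 for miR-182-5p and 2.95 for miR-96-5p, and the ratios of medians were 2.24 and 2.72. In this cluster mean and median thus pointed the same way.

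**Figure D1:**
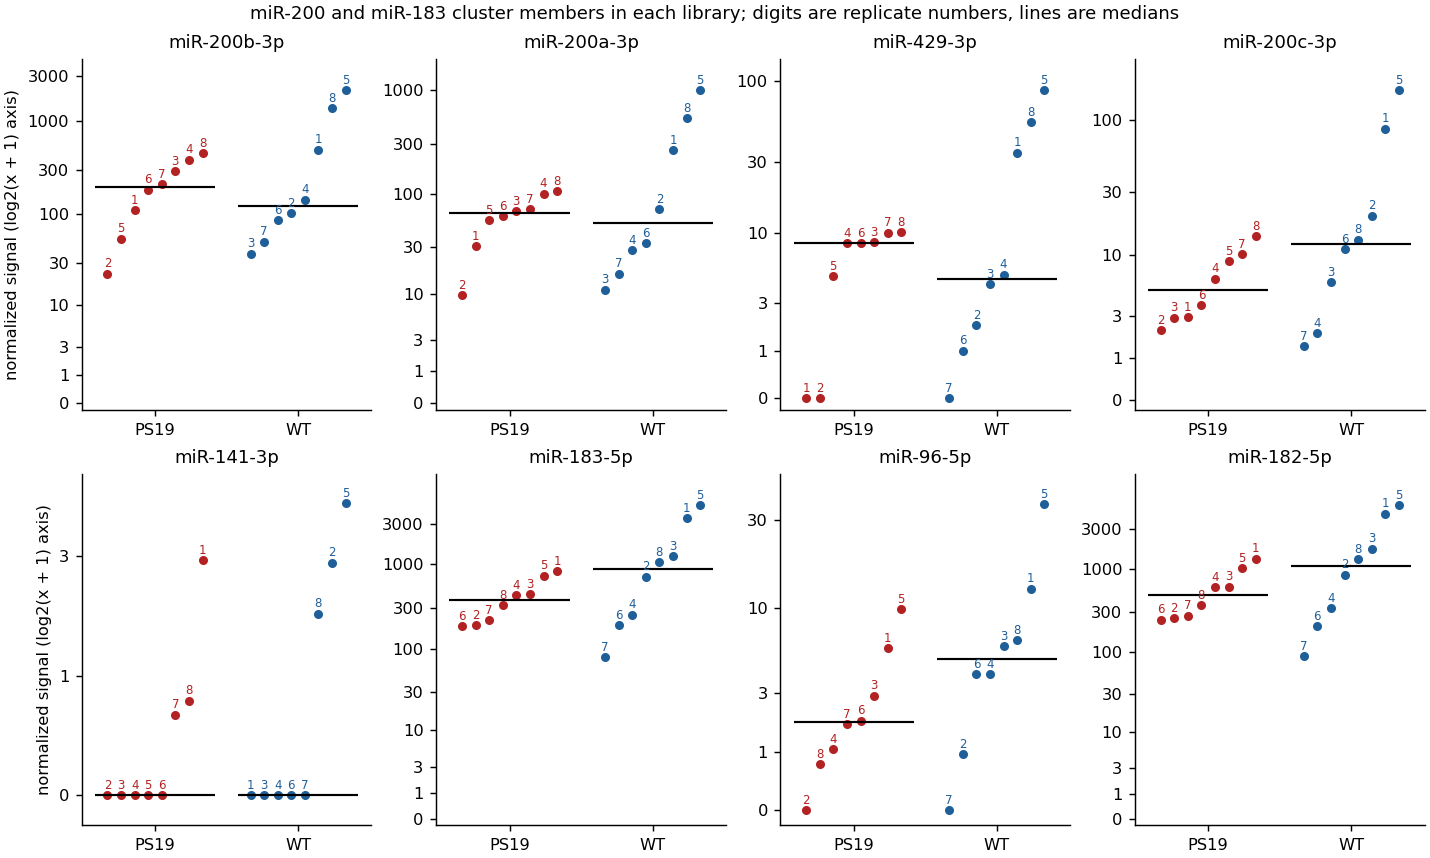
Normalized signal of the 8 members in each library on a log2(x + 1) axis, with 1 panel per miRNA, PS19 in red and WT in blue; points are libraries with their replicate number, sorted by value within a genotype, and horizontal lines are medians. WT 5 is the highest point in all 8 panels, and the PS19 and WT points overlap in every panel.

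Read across members, WT 5 was the highest library for all 8, WT 1 was among the 3 highest for 7 and WT 8 for 3. For each tested member, its own 3 highest WT libraries, which were not the same for all, held 78.9% (miR-96-5p) to 93.5% (miR-429-3p) of its WT signal. The spread was accordingly wider in WT than in PS19, with an SD of log2(signal + 1) of 2.38 against 1.08 for miR-200a-3p, 2.16 against 1.46 for miR-200b-3p, 2.07 against 0.84 for miR-183-5p and 2.13 against 0.94 for miR-182-5p. The difference in spread was not tested. WT 5 did not stand apart in total reads (18.6 M) or in the miRNA share of its signal (26.1%), and neither did WT 1 (19.0 M and 28.0%) or WT 8 (15.6 M and 31.6%).

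PS19 was then compared with WT by limma on log2(signal + 1) across all 6024 features with a mean of at least 5, which 7 of the 8 members reached. All 7 had a lower mean log2 level in PS19, with a median difference of -0.84. The median was -0.02 over all tested features and -0.12 over the 748 tested miRNA features. Of the tested features, 53.2% were lower in PS19. The shared sign of the 7 members is not independent evidence, since neighbours at a locus varied together and WT 5 was the highest library for each. In addition, the mean of miR-96-5p was below 5 in PS19 and above 5 in WT. It thus passed the filter through WT libraries, which favours a lower level in PS19. None of the 7 members passed an unadjusted p of 0.05, a level that 4.0% of all tested features passed, and none passed after Benjamini-Hochberg adjustment, where 0% of features did (lowest adjusted p of a member 0.9998 by limma).

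The largest difference was that of miR-200c-3p, -1.24 ± 0.69 (SE) on the log2 scale, with a 95% interval from -2.66 to 0.19 (limma, unadjusted p = 0.0852; two-sided exact permutation test, p = 0.161). The miR-183 cluster members followed, at -0.96 ± 0.65 for miR-183-5p (interval -2.32 to 0.40), -0.92 ± 0.62 for miR-96-5p (-2.20 to 0.37) and -0.84 ± 0.68 for miR-182-5p (-2.25 to 0.58). By limma the chromosome 4 miRNAs differed least, at -0.70 ± 0.84 for miR-429-3p (-2.44 to 1.03), -0.63 ± 0.76 for miR-200a-3p (-2.22 to 0.95) and -0.45 ± 0.76 for miR-200b-3p (-2.03 to 1.13). DESeq2 gave another order, with miR-200a-3p (-1.94) and miR-429-3p (-1.85) beyond the miR-183 cluster members, of which miR-183-5p (-1.83) differed most, and with miR-200b-3p (-1.33) least. Every limma interval held 0 and also a difference of -2, so limma on these 16 libraries showed neither a change nor its absence. Exact permutation p-values ran from 0.161 to 0.627 over the members.

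The other tools gave different counts, and the cause was not tested. Their estimates compare mean signals on a log2 scale, whereas limma compares means of log2 levels, so the sizes are unlike quantities. A few high libraries weigh more in the former. On the recovered reads, DESeq2 called 4 of the 7 members lower in PS19 at an unadjusted p under 0.05 (4.70% of all features passed), namely miR-200c-3p (log2 difference -2.54), miR-200a-3p (-1.94), miR-183-5p (-1.83) and miR-182-5p (-1.66). The edgeR quasi-likelihood test called 6 of 7, all but miR-200b-3p, where 4.40% of all features passed. Neither count is one of independent results, as neighbouring members varied together and shared WT 5 as their highest library. After adjustment over all features no member passed in either, with lowest adjusted p-values of 0.208 by DESeq2 and 0.617 by edgeR, and DESeq2 gave miR-96-5p no adjusted p. The limma result itself turned on single WT libraries at the low end. Without WT 7, miR-200c-3p (-1.61), miR-183-5p (-1.41), miR-96-5p (-1.28) and miR-182-5p (-1.31) passed the unadjusted threshold, as did 292 of all 6024 features. Without WT 4 miR-200c-3p (-1.57) did, as did 225 of all features. No member passed after adjustment in either. Without WT 5 the difference of miR-200b-3p was 0.021, of the opposite sign.

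All PS19 libraries carried the code letter G, which only WT 2 and WT 4 shared, so that the letter and the genotype were largely confounded. Within the 10 libraries of letter G, the summed miR-200 signal was 34.6 to 580.0 in PS19 against 179.0 and 198.7 in the WT pair, and the summed miR-183 signal was 429.8 to 2147 against 588.3 and 1558. WT values thus lay inside the PS19 range for both sums. In limma on these 10 libraries the 3 chromosome 4 miRNAs had a higher mean in PS19, by 0.32 for miR-200b-3p, 0.22 for miR-200a-3p and 0.35 for miR-429-3p, and the other 4 members differed by -0.31 to -0.02, with no member at an unadjusted p under 0.05. The high libraries WT 1 and WT 5 had letter F, as had the low libraries WT 6 and WT 7, and WT 8 had letter A. The part of the letter in these differences cannot be told apart from that of genotype for letters F and A, which held WT libraries alone.

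**Figure D2:**
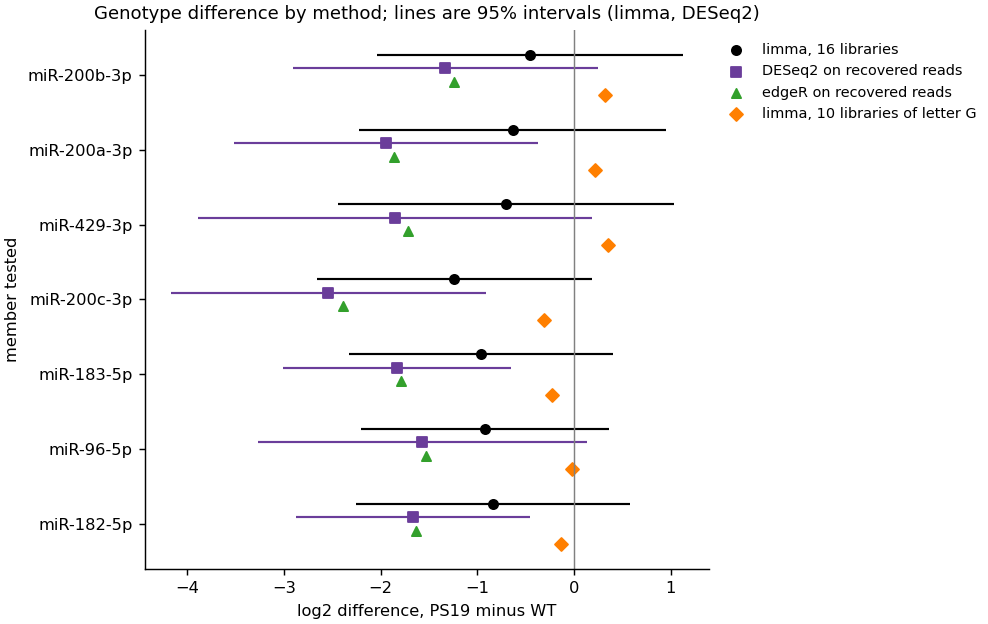
Log2 difference, PS19 minus WT (x axis), of the 7 members tested (y axis), by limma on 16 libraries, DESeq2, edgeR and limma on the 10 libraries of letter G; horizontal lines are 95% intervals for limma and DESeq2. Each limma interval over 16 libraries crosses 0, the DESeq2 and edgeR points lie further to the left, and the points for the letter G libraries lie near 0, between -0.31 and 0.35.

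The more abundant members of a locus varied together across libraries. Over the 16 libraries, the log2 levels of miR-182-5p and miR-183-5p had a Pearson r of 0.996, and their signal ratio stayed between 1.07 and 1.61 (median 1.31) while the levels varied 66.0-fold and 63.2-fold among WT libraries. On chromosome 4, miR-200b-3p and miR-200a-3p had an r of 0.94, and their ratio ran from 1 in PS19 5 to 5.11 in WT 4 (median 3.04). miR-429-3p had an r of 0.87 with miR-200b-3p and 0.89 with miR-200a-3p, and miR-96-5p one of 0.83 with miR-183-5p and 0.82 with miR-182-5p. The neighbours miR-200c-3p and miR-141-3p had an r of 0.49, with 14 reads of miR-141-3p in all. These values are descriptions, since the points share library, depth and size factor.

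Between the 2 miR-200 loci, miR-200c-3p had an r of 0.65 with miR-200b-3p, 0.71 with miR-429-3p and 0.79 with miR-200a-3p. The ratio of miR-200b-3p to miR-200c-3p, which have the same seed but come from different chromosomes, varied from 5.19 in WT 2 to 103.6 in WT 8. The 12 pairs of a miR-200 with a miR-183 member, leaving out miR-141-3p, had r between 0.50 and 0.78 (median 0.62), and the highest value was that of miR-200c-3p with miR-183-5p. The summed miR-200 and miR-183 signals had an r of 0.59 over all 16 libraries, 0.71 over the 8 WT and 0.05 over the 8 PS19 libraries, a difference between genotypes that was not tested. Without WT 5 the overall r was 0.42. WT 3 had a miR-183 sum of 2971 beside a miR-200 sum of 59.0, whereas WT 8 had 2355 beside 1959 and PS19 8 had 689.0 beside 580.0. The ratio of miR-182-5p to miR-200b-3p ran from 0.802 in PS19 8 to 46.2 in WT 3 (median 2.32).

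**Figure D3:**
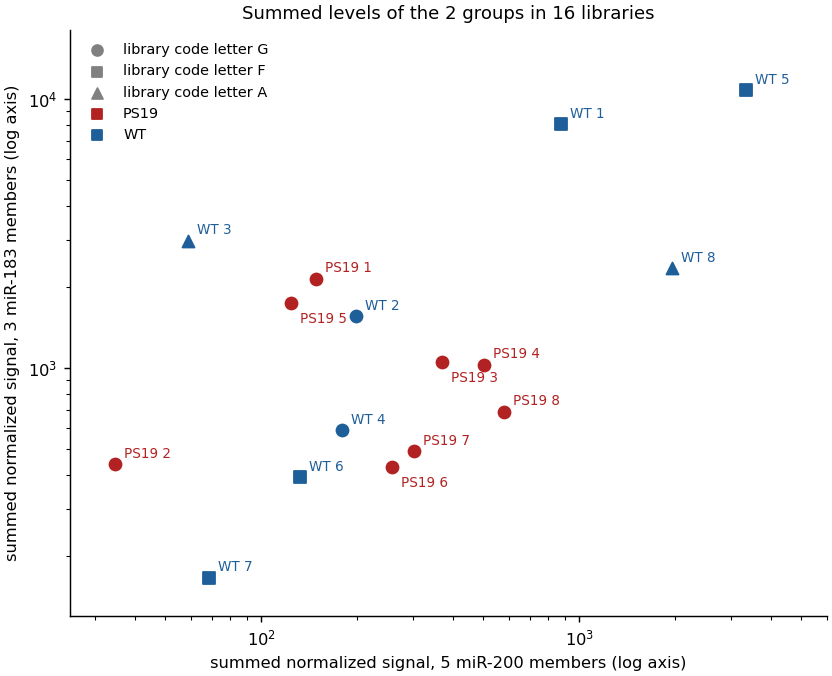
Summed normalized signal of the 5 miR-200 members (x axis, log) against that of the 3 miR-183 members (y axis, log) in the 16 libraries, with genotype by colour and code letter by marker. WT 5 is highest on both axes, WT 3 has a high miR-183 sum with a low miR-200 sum, and the 8 PS19 libraries lie in the middle and lower part without a common slope.

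Other rows of the same hairpins followed the members closely but not in the exact order of libraries, with Spearman rho from 0.84 (miR-200b-3p with the precursor row mir-200b) to 0.97 (miR-183-5p with mir-183) over the 16 libraries. Whether a read of a mature arm was also counted in its precursor row is not given in the sources used here, so these rows are not independent evidence. The hairpins of Mir200a and Mir183 are shown because both a mature arm and a second row were counted for each, with the annotated arms in capitals and positions as above.
Mir200a: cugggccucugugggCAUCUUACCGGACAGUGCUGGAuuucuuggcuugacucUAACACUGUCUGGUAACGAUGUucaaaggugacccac
Mir183: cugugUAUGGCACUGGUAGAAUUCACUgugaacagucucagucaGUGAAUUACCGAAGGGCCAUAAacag

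The 5p arm of Mir200a, on the left of its hairpin, had 0 to 27.1 in PS19 (median 15.9) and 2.12 to 112.3 in WT (median 7.03), with WT 5 (112.3), WT 8 (112.0) and WT 1 (46.1) above all PS19 libraries. The ratio of miR-200a-3p to its 5p arm ran from 3.11 to 14.8 (median 4.33, n = 15 libraries with a 5p read). The precursor row mir-183 had 8.33 to 78.6 in PS19 and 6.37 to 289.6 in WT, and the ratio of miR-183-5p to it ran from 10.4 to 26.1 (median 17.2). Of the 8 other arms and 8 precursor rows sought, 4 and 5 were in the table and 2 of each were tested, and none passed an unadjusted p of 0.05 by limma. The precursor row mir-182, with 20 reads in all and too low for limma, was above 0 in 1 of 8 PS19 and 5 of 8 WT libraries, and of the 17 rows given an exact permutation test it was the 1 with an unadjusted p under 0.05 (two-sided exact permutation p = 0.0443).

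**Figure D4:**
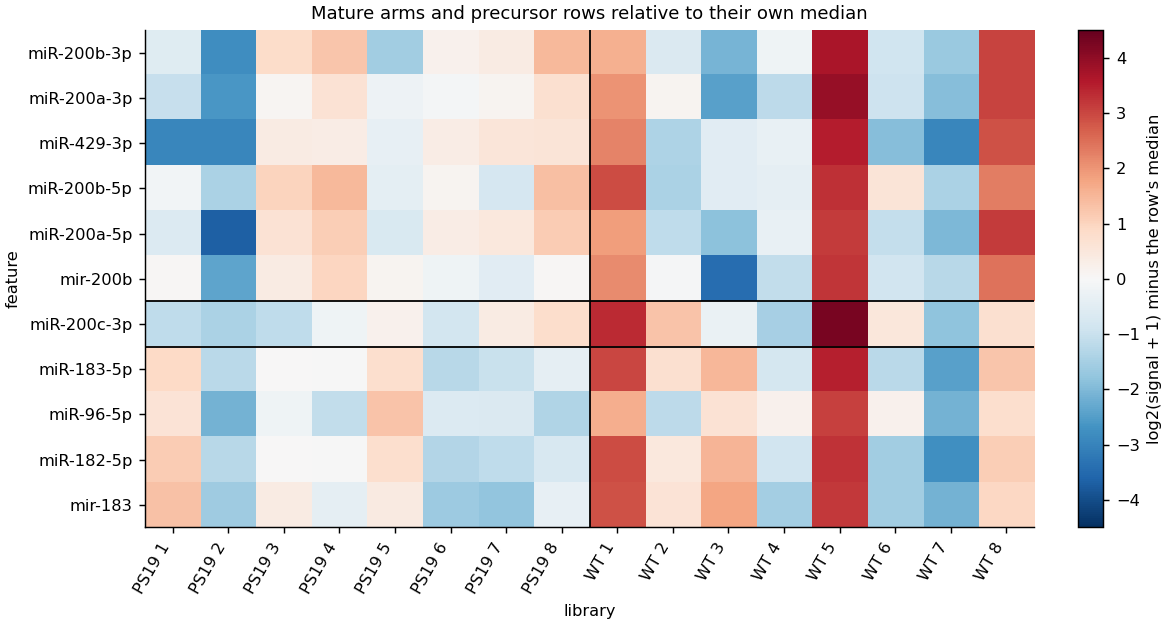
Log2(signal + 1) of each member, other arm and precursor row with a mean of at least 5, minus the median of its row (colour), for the 16 libraries (x axis); lines part PS19 from WT and the 3 loci from each other. WT 5 and WT 1 are red in all rows, WT 8 is strongest in the chromosome 4 rows, WT 3 is blue in most of the chromosome 4 rows and red in the miR-183 rows, and WT 7 is blue throughout.

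Compared with other miRNAs, the abundant members were among the most variable. Of the 334 miRNA features with a mean of at least 100, the median SD of log2(signal + 1) over the 16 libraries was 0.66, and miR-200a-3p (1.81), miR-200b-3p (1.80), miR-182-5p (1.65) and miR-183-5p (1.60) ranked 4, 5, 6 and 8. The other places in the first 8 were taken by the 2 rows of miR-187 and the 2 arms of miR-1298. Within WT the 4 members ranked 1, 3, 5 and 6, and within PS19 they ranked 15, 4, 34 and 69, in the same order. miR-200a-3p passed the mean of 100 only through high WT libraries (WT mean 243.6 and median 51.7, PS19 mean 62.5). Such a filter favours a wide WT spread, so its ranks are partly set by it. The miR-183 members thus ranked higher within WT than within PS19, where their SDs (0.94 for miR-182-5p and 0.84 for miR-183-5p) still lay above the median of 0.68. miR-200b-3p and miR-200a-3p also ranked high within PS19. The difference in ranks was not tested.

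**Figure D5:**
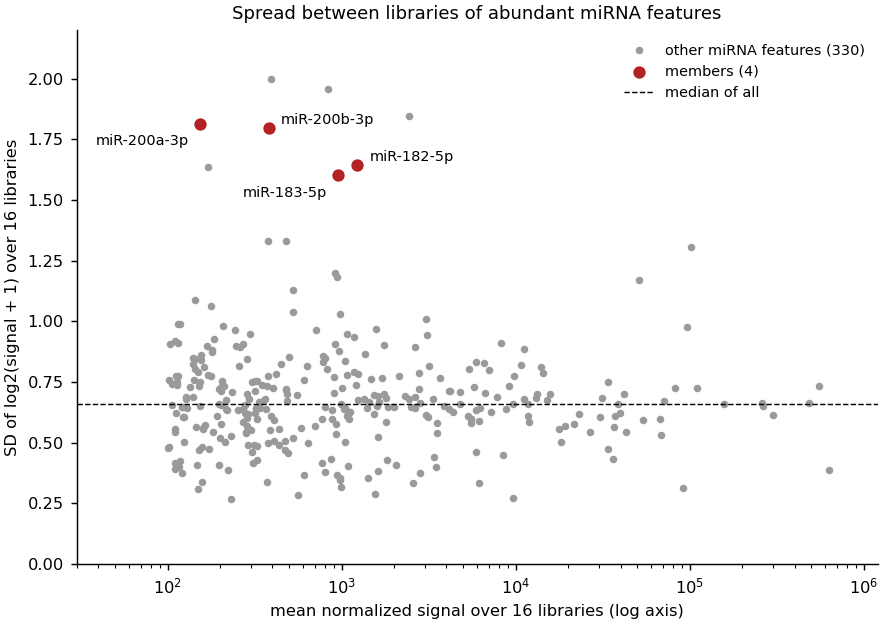
SD of log2(signal + 1) over the 16 libraries (y axis) against mean normalized signal (x axis, log) for 334 miRNA features with a mean of at least 100; the 4 members are red and the dashed line is the median SD, 0.66. The 4 members lie between 1.60 and 1.81, and of the other 330 features 4 lie above 1.60.

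The miRNAs with the most similar course were taken for each sum from 525 other mature miRNAs with a mean of at least 5. For the miR-200 sum they were miR-8114 (r = 0.63), miR-542-3p (0.56), miR-499-5p (0.56), miR-6940-3p (0.54) and miR-376b-3p (0.48), all scarce, with genotype means from 4.76 to 25.6. The median r over the 525 was 0.11. For the miR-183 sum they were miR-485-3p (0.80), miR-504-5p (0.79), miR-676-5p (0.79), miR-351-5p (0.77) and miR-222-5p (0.77), but 504 of the 525 had an r above 0 and the median was 0.51. For the miR-200 sum, 380 of the 525 had an r above 0. Scaled to the miRNA signal of each library, in ppm, the miR-183 sum was 99.1 to 510.7 in PS19 against 73.2 to 2493 in WT.

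MiRNAs of other tissues were read beside the members as a gauge of what the dissected pieces held. Of 7 other epithelial and secretory miRNAs, 6 were tested and 0 passed an unadjusted p of 0.05 (median log2 difference -0.06), and their summed signal was 1098 to 6672 in PS19 and 1754 to 7041 in WT. miR-205-5p, a marker of stratified epithelia, was at or near 0, at 4.46 or less in every library, with its highest value in WT 5. miR-203-3p, of skin and other epithelia, was highest in PS19 3 (2409), and miR-375-3p, of islets and other secretory cells, in WT 2 (5464). The 6 tested miRNAs of the list ranked 4 (miR-203-3p) to 11 (miR-375-3p) of 16 in WT 5. Across the 16 libraries the r of the 7 with the miR-200 sum ran from -0.26 (miR-375-3p) to 0.35 (miR-205-5p), with a median of 0.18. With the miR-183 sum it ran from 0.03 (miR-375-3p) to 0.57 (miR-194-5p), with a median of 0.50, beside the 0.51 over the 525 mature miRNAs.

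Of 10 miRNAs enriched in brain regions outside the cortex, 8 were tested and 0 passed an unadjusted p of 0.05 (median log2 difference 0.08), and their summed signal was 42348 to 427427 in PS19 and 36363 to 442403 in WT. This sum was mostly miR-7a-5p and miR-7b-5p (PS19 means 81421 and 42007, with miR-204-5p next at 1961), so it says little of the others. The hindbrain and spinal cord miRNAs miR-196a-5p and miR-196b-5p were at 0 in all but 1 library each. miR-10b-5p (351.1) and miR-211-5p (32.1) were highest in WT 5, the highest library of all 8 members, and the other 6 tested were not, ranking 8 (miR-10a-5p), 9 (miR-7b-5p), 10 (miR-7a-5p and miR-448-3p) and 15 (miR-206-3p and miR-204-5p) of 16 there. Over the 10, r ran from -0.18 (miR-206-3p) to 0.43 (miR-196b-5p) with the miR-200 sum and from 0.17 (miR-196b-5p) to 0.65 (miR-7b-5p) with the miR-183 sum. The r values of miR-196b-5p only mark the place of WT 8, where alone it was above 0 (0.933). Among the 8 tested, the highest r with the miR-200 sum was 0.30 (miR-211-5p) and the lowest with the miR-183 sum 0.28 (miR-204-5p). Of the 6 cortical neuron miRNAs and of the 4 tested of 7 glial, vascular and blood miRNAs, 0 passed (median log2 differences -0.11 and 0.30), with summed signals of 302404 to 1042980 in PS19 and 346910 to 968084 in WT for the first list and of 23508 to 80573 and 25987 to 64591 for the second. The first sum was mostly miR-128-3p and miR-9-5p, and the second mostly miR-219a-2-3p and miR-126a-3p. Whether pieces of olfactory or other tissue entered some dissections was not tested.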

How the data were processed

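Small RNA libraries from 16 brains were analysed, 8 PS19 and 8 WT, grouped by the genotype in the sample labels. The study describes separate mice. Per its methods the authors aligned reads with STAR 2.5.3a inside COMPSRA and tested differential abundance with DESeq2 1.42.1. The submitters' processing notes name build mm10. The deposited values are a normalized signal, read counts divided by a size factor for each library. Dividing each library by its smallest non-zero value gave whole numbers for 100% of values (tolerance 0.01 reads), and these were taken as reads, with weaker evidence in WT 4 and WT 6, where a read was worth about 1. The authors' columns of fold changes, standard errors, test statistics, p-values and means in the same table were not used, and 0 columns of single libraries were left out.

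Values were transformed as log2(value + 1), which understates changes of low features, features with a mean of at least 5 were kept, and limma 3.58.1 (lmFit, eBayes with trend) was run in R 4.3.3 with genotype as the sole term, two-sided, with Benjamini-Hochberg adjustment over 6024 features. Each member was also tested by exact permutation, two-sided, over 12870 assignments of libraries (smallest possible p 0.000155) in Python 3.11.15. The limma script was tested on simulated data. DESeq2 1.42.0 and edgeR 4.0.16 on recovered reads, other pseudocounts, filters and scalings, array weights, a replicate block, the code letter and leaving out each library in turn were alternatives. Intervals cover the spread between libraries, and depth enters through the read counts given.

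The named features were the 8 members, the other arms and precursor rows of their hairpins, 4 lists of marker miRNAs, and the 5 miRNAs with the highest Pearson r to each sum. The members and lists were chosen with earlier results of these data known. Features that stand out on their own values, such as miR-1298 and miR-187, were named after their values were seen.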

Additional observations from a re-analysis of the deposited data

Results flagged for a closer look

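Of 32 sets of 8 values, each a member, arm, precursor row or sum within a genotype, 4 had an extreme library by Dixon's test at the 95% level, where chance gives about 1 in 20, or 1.6. That rate assumes normal values and separate sets. These values were untransformed and skewed, and the sums hold the same members, so 4 cannot be weighed against 1.6. In WT, WT 5 stood apart for miR-96-5p, with 36.5 (41 reads) against 12.8 in the next library, and for the miR-183 members scaled to the miRNA signal of each library, with 2493 ppm against 1181. In PS19, PS19 8 stood apart for the miR-200 members on that scale, with 242.5 ppm against 110.5, and PS19 1 for miR-141-3p, with 2.91 against 0.731, which rests on 2 reads. The normalized signals of miR-200b-3p, miR-200a-3p, miR-183-5p and miR-182-5p had no such library in either genotype, as more than 1 WT library was high.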

How the results depend on the processing

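No member passed an adjusted p of 0.05 under any of the alternatives. Members with an unadjusted p under 0.05 numbered 0 in limma, 4 with DESeq2, 6 with edgeR, 1 with no filter on low values (miR-200c-3p), 1 with array weights (miR-96-5p) and 0 to 4 with a library left out. Over all features, unadjusted calls went from 241 to 680 with no filter, 136 with a mean of at least 20, 418 with array weights, 124 with the code letter as a term, 121 with letter G libraries alone and 171 to 321 with a library left out, and adjusted calls from 0 to 15 with DESeq2. Both filters change the number of features tested, and the one at 20 leaves out miR-429-3p and miR-96-5p. The cause of the other changes was not tested. The sign turned for miR-200b-3p (0.32), miR-200a-3p (0.22) and miR-429-3p (0.35) with the letter as a term or with letter G libraries alone, which give the same estimate, and for miR-200b-3p without WT 5 (0.021). Leaving out single libraries moved miR-200b-3p between -0.80 and 0.021, miR-200a-3p between -1.03 and -0.12, miR-429-3p between -1.15 and -0.22, miR-200c-3p between -1.61 and -0.74, miR-183-5p between -1.41 and -0.56, miR-96-5p between -1.28 and -0.53, miR-182-5p between -1.31 and -0.44, the miR-200 sum between -0.89 and -0.06 and the miR-183 sum between -1.35 and -0.49, in each case nearest 0 without WT 5. The log2 difference of the summed miR-200 level went from -0.54 to 0.22 in letter G libraries. Other pseudocounts and scaling to the library or miRNA total kept sign and side of the threshold for every tested member. With the replicate number as a block, 419 features and 2 members, miR-183-5p and miR-96-5p, had an unadjusted p under 0.05 (limma, unadjusted p = 0.0277 and 0.0380). Same-numbered libraries deviated together with r from 0.045 to 0.456, under 0.1 for numbers 2 and 4, and 2 of 8 PS19 libraries matched their own number best, so the numbers were not taken to pair the libraries, although all 8 r were above 0. With at most 41 reads for miR-96-5p and 5 for miR-141-3p in a library, depth limits these members most.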
